A study of Homo sapiens with 6 samples.

Results

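The arrestin fold is shared by the beta-arrestins and by the arrestin-domain proteins, or alpha-arrestins, and 7 human genes of both kinds are described here in SW480 cells after knockdown of ZEB1. The members were set by name: the alpha-arrestin genes *ARRDC1*, *ARRDC2*, *ARRDC3*, *ARRDC4* and *TXNIP*, and the beta-arrestin genes *ARRB1* and *ARRB2*. All 7 were found among the 32029 genes listed in each culture. SW480 is an established line from a human colorectal adenocarcinoma, and all 6 cultures carry the wild-type genotype and differ, as far as the labels say, in the siRNA: 3 received a control siRNA (labelled siNC; siControl in the study) and 3 received an siRNA against *ZEB1* (siZEB1). RNA was taken 48 h after transfection and read counts per gene were deposited. The methods of the study call the samples of a group biological replicates, so the p-values measure the spread between such replicates of a single line.

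Beta-arrestins bind activated, phosphorylated G protein-coupled receptors, uncouple them from G proteins, link them to clathrin and the AP2 adaptor for endocytosis, and hold kinases such as those of the ERK cascade near the receptor. Most alpha-arrestins carry short proline-rich motifs that recruit E3 ubiquitin ligases of the NEDD4 family to membrane proteins, which are then sorted away from the cell surface. TXNIP, the best known of them, also binds thioredoxin and lowers glucose uptake. ZEB1 is a zinc-finger repressor of epithelial genes that binds E-boxes of the form CACCTG.

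*TXNIP* and *ARRDC3* rose in the siZEB1 cultures, to 2.21 and 2.05 times their siNC levels. Both beta-arrestin genes fell, *ARRB1* to 0.682 and *ARRB2* to 0.819 of the siNC level. *ARRDC1*, *ARRDC2* and *ARRDC4* did not pass the test. All 7 genes passed the filter on low counts, and 4 of them were called at an adjusted p under 0.05, where 40.2% of the 14996 genes tested were called. The 2 members called higher stand beside 19% of all genes called higher, and the 2 called lower beside 21.2% called lower. The same 4 members had siNC and siZEB1 cultures that did not overlap, as did 49.5% of all genes tested. The study's text applies a fold threshold of 1.5 with p under 0.05 in its results and under 0.001 in its methods. With the unadjusted p of the test used here, 16.6% of all genes tested met the first and 11.2% the second, and 2 members, *TXNIP* and *ARRDC3*, met both.

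The knockdown itself was read from *ZEB1*, which had 1247, 1276 and 908 counts with siNC and 136, 132 and 162 with siZEB1. Its level was 86.2% lower in the siZEB1 cultures (log2 fold change -2.85, SE 0.11, adjusted p = 4.85e-12, edgeR quasi-likelihood test). The total counts ran from 19261824 to 22357633 with siNC and from 19040636 to 19349668 with siZEB1, and no pair of cultures of a group agreed within sampling noise. Markers of colorectal epithelium summed to 4822 to 5443 CPM (counts scaled for the size of each library) with siNC and to 5356 to 5964 with siZEB1, of which *KRT8* and *KRT18* made up most, while *CDH17* had 0 to 5 counts in every culture. Within that list *EPCAM* had 1008 to 1273 counts per culture with siNC and 8370 to 8858 with siZEB1, while *CDX2* had 2023 to 2312 with siNC and 760 to 862 with siZEB1, and their part in the results was not tested. Summed fibroblast markers lay between 13.4 and 15.1 CPM in the 6 cultures, immune markers between 0.659 and 1.15, and endothelial markers between 1.52 and 2.73. The markers *DCN*, *PTPRC* and *CDH5* were not found by name among the listed genes, so they did not enter these sums. In these bulk samples, a smaller number of cells that express a gene and less of its RNA in each cell cannot be told apart.

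**Figure D1:**
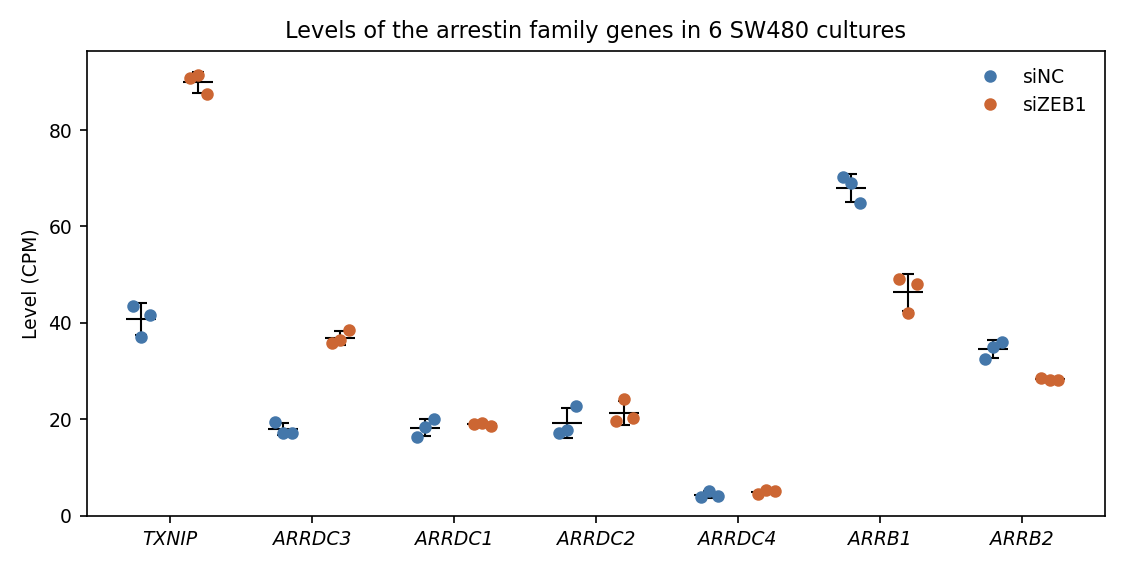
Level of each gene in CPM (linear axis from 0) in the 3 siNC cultures (blue) and the 3 siZEB1 cultures (orange). Each point is a culture, and the black bars are the mean and the SD. *TXNIP* and *ARRDC3* sit higher in all 3 siZEB1 cultures, *ARRB1* and *ARRB2* sit lower, and the points of *ARRDC1*, *ARRDC2* and *ARRDC4* overlap.

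*TXNIP* (ENSG00000265972; GRCh38 chromosome 1, 145992435 to 145996600, minus strand) encodes the thioredoxin-interacting protein, which binds reduced thioredoxin, is induced by glucose and promotes the removal of the glucose transporter GLUT1 from the cell surface. It had 925, 830 and 802 counts with siNC and 1713, 1759 and 1673 with siZEB1, which is 43.5, 37.1 and 41.6 CPM against 90.7, 91.5 and 87.4 CPM. Every siZEB1 culture lay above every siNC culture, with a gap between the groups wider than the range within either. Its mean of 40.7 ± 3.31 CPM with siNC rose to 89.9 ± 2.17 CPM with siZEB1 (SD over 3 cultures), which is 1.14 on the log2 scale with an SE of 0.073 (adjusted p = 2.74e-09) and 2.21-fold with a 95% interval from 1.98 to 2.46. Among all genes tested, 1.91% had a larger log2 fold change. No annotated exon of another gene overlaps those of *TXNIP*.

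*ARRDC3* (ENSG00000113369; chromosome 5, 91368724 to 91383359, minus strand) encodes an adaptor that brings NEDD4-family ligases to surface proteins, among them integrin beta4. The study lists it as a putative tumor suppressor that rose in these same samples, so its direction here is not independent evidence. For such genes the study also set qRT-PCR in SW480 cells beside its RNA-seq. It had 413, 386 and 332 counts with siNC and 676, 700 and 736 with siZEB1, or 19.4, 17.2 and 17.2 CPM against 35.8, 36.4 and 38.5 CPM. The groups did not overlap. Its mean of 18.0 ± 1.27 CPM rose to 36.9 ± 1.39 CPM (SD over 3 cultures). This is a difference of 1.04 on the log2 scale with an SE of 0.083 (adjusted p = 3.91e-08), and the 95% interval of the fold change ran from 1.82 to 2.32. Of the genes tested, 2.46% lay above it. A long non-coding gene on the opposite strand, *ARRDC3-AS1*, shares 145 exonic bases with it, 2.94% of its exonic length, and had 5 to 7 counts per culture with siNC and 9 to 15 with siZEB1.

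*ARRB1* (ENSG00000137486; chromosome 11, 75264182 to 75351705, minus strand) encodes beta-arrestin 1. It had 1493, 1547 and 1249 counts with siNC and 928, 807 and 919 with siZEB1, or 70.2, 69.1 and 64.8 CPM against 49.2, 42.0 and 48.0 CPM. The siNC cultures all lay above the siZEB1 cultures, of which siZEB1_2 was the low one. Its mean of 68.0 ± 2.86 CPM fell to 46.4 ± 3.86 CPM (SD over 3 cultures), or -0.55 on the log2 scale with an SE of 0.075 (adjusted p = 1.71e-05), and the level was 0.682 of that with siNC (95% interval 0.611 to 0.761). Of all genes tested, 11.2% had a lower log2 fold change. An antisense gene, AP001972.2, covers 216 of its exonic bases (3.71%) and was not among the listed genes.

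*ARRB2* (ENSG00000141480; chromosome 17, 4710489 to 4721499, plus strand) encodes beta-arrestin 2, the other widely expressed arrestin of G protein-coupled receptors. It had 691, 785 and 696 counts with siNC and 539, 541 and 540 with siZEB1, or 32.5, 35.1 and 36.1 CPM against 28.6, 28.1 and 28.2 CPM. The siZEB1 cultures lay close together and just under the siNC cultures, with no overlap. Its mean of 34.6 ± 1.86 CPM fell to 28.3 ± 0.221 CPM (SD over 3 cultures), or -0.29 on the log2 scale with an SE of 0.076 (adjusted p = 0.0061). Its level was 0.819 of that with siNC (95% interval 0.733 to 0.916), a change that 23.8% of all genes tested exceeded downward. No annotated exon of another gene overlaps its exons.

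*ARRDC1* (ENSG00000197070; chromosome 9, 137605654 to 137615360, plus strand) encodes the alpha-arrestin that draws the ESCRT protein TSG101 to the plasma membrane, where vesicles bud outward. It had 349, 411 and 385 counts with siNC and 358, 370 and 357 with siZEB1, or 16.4, 18.4 and 20.0 CPM against 19.0, 19.2 and 18.7 CPM. The siZEB1 values all fell inside the range of the siNC values. The log2 fold change was 0.056 (SE 0.092, adjusted p = 0.662), and the 95% interval of the fold change ran from 0.908 to 1.19. Without siNC_1 the log2 fold change was -0.016, again not called. The gene AL590627.2 on the same strand shares 183 exonic bases with it (4.79%) and was not among the listed genes. Its antisense gene *ARRDC1-AS1*, which shares 29 exonic bases with it, had 412, 386 and 334 counts with siNC and 348, 320 and 287 with siZEB1.

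*ARRDC2* (ENSG00000105643; chromosome 19, 18001132 to 18014102, plus strand), a little-studied alpha-arrestin, had 363, 400 and 440 counts with siNC and 369, 465 and 387 with siZEB1. In CPM these were 17.1, 17.9 and 22.8 against 19.5, 24.2 and 20.2, so the groups overlapped, with siNC_3 and siZEB1_2 the high cultures of their groups. The log2 fold change was 0.15 (SE 0.11, adjusted p = 0.313), with a 95% interval of the fold change from 0.940 to 1.31. This result rested on siNC_3: without it the log2 fold change was 0.28 with an adjusted p of 0.0255. The gene AC020904.3 on the opposite strand covers 9.53% of the exonic bases of *ARRDC2* and was not among the listed genes.

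*ARRDC4* (ENSG00000140450; chromosome 15, 97960698 to 97973838, plus strand) encodes the relative of TXNIP that is likewise induced by glucose and lowers glucose uptake. It had the fewest counts of the 7 genes, 83, 115 and 78 with siNC and 86, 102 and 98 with siZEB1, or 3.90, 5.14 and 4.05 CPM against 4.56, 5.30 and 5.12 CPM. The groups overlapped through siNC_2. The log2 fold change was 0.19 (SE 0.16, adjusted p = 0.352). At this depth the 95% interval of the fold change, 0.909 to 1.43, holds no change as well as a rise of over 1.4 times, but not the fold change of *TXNIP*.

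**Figure D2:**
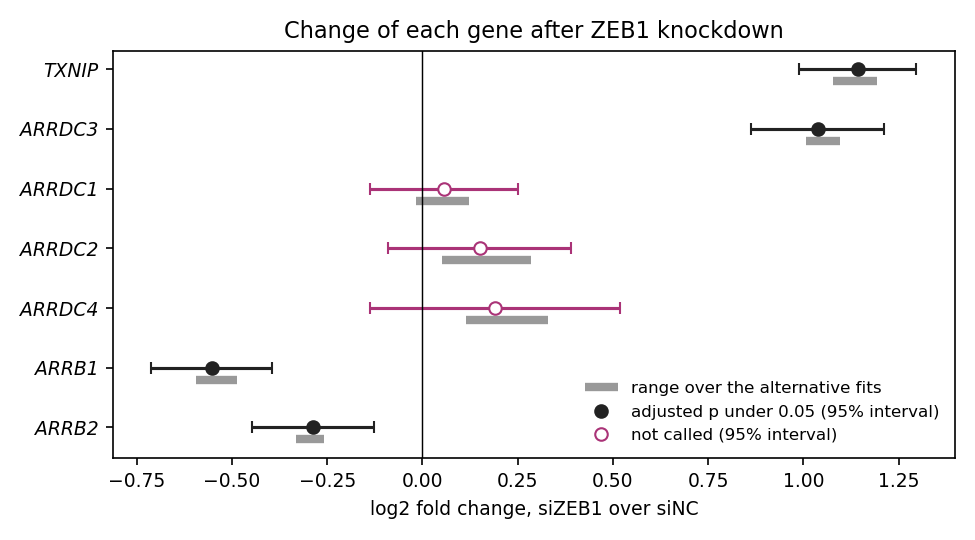
Log2 fold change of each gene, siZEB1 over siNC, with its 95% interval; filled points were called at an adjusted p under 0.05 and open points were not. Grey bars give the range over the 12 alternative fits, from 1.08 to 1.19 for *TXNIP*, from 1.01 to 1.10 for *ARRDC3*, from -0.60 to -0.49 for *ARRB1* and from -0.33 to -0.26 for *ARRB2*; the bar of *ARRDC1* crosses 0.

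Levels of different genes were set side by side as CPM per kb of exon, since a longer transcript gives more reads. In the siNC cultures *ARRB1* stood at 11.7 ± 0.491 CPM per kb and *TXNIP* at 11.2 ± 0.913, and these neighbours overlapped. *ARRB2* followed at 7.90 ± 0.424. *ARRDC1* at 4.78 ± 0.466, *ARRDC2* at 4.15 ± 0.673 and *ARRDC3* at 3.64 ± 0.257 came next, each overlapping its neighbour, and *ARRDC4* was last at 1.07 ± 0.165 CPM per kb. With siZEB1 the order was another. *TXNIP* stood clear of the rest at 24.8 ± 0.597 CPM per kb. *ARRDC3*, at 7.48 ± 0.281, had moved up beside *ARRB1* at 7.96 ± 0.663, with overlapping cultures, and above *ARRB2* at 6.47 ± 0.0505. *ARRDC1* at 4.96 ± 0.0772 and *ARRDC2* at 4.60 ± 0.540 CPM per kb overlapped, and *ARRDC4* was again last at 1.23 ± 0.0959.

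The same scale gives the makeup of each subfamily. *TXNIP* made up 48.2%, 43.3% and 44.0% of the summed alpha-arrestin level in the siNC cultures and 58.8%, 57.1% and 56.9% in the siZEB1 cultures. *ARRDC3* took 14.7% ± 1.23 with siNC and 17.4% ± 0.885 with siZEB1 (SD, n = 3 each). The shares of the other members were lower: *ARRDC1* took 19.2% ± 1.68 and then 11.5% ± 0.126, *ARRDC2* 16.7% ± 2.05 and then 10.7% ± 1.01, and *ARRDC4* 4.33% ± 0.870 and then 2.85% ± 0.191. The share of *ARRB2* in the summed beta-arrestin level was 38.2%, 40.3% and 42.6% with siNC and 43.6%, 47.2% and 43.9% with siZEB1. The groups did not overlap for any of the 6 shares, and each exact two-sided permutation test gave p = 0.1, the smallest that 3 cultures against 3 allow, so no share could pass a threshold of 0.05. Shares within a subfamily sum to 100%, so the lower shares of *ARRDC1*, *ARRDC2* and *ARRDC4* stand beside levels that were not called lower.

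**Figure D3:**
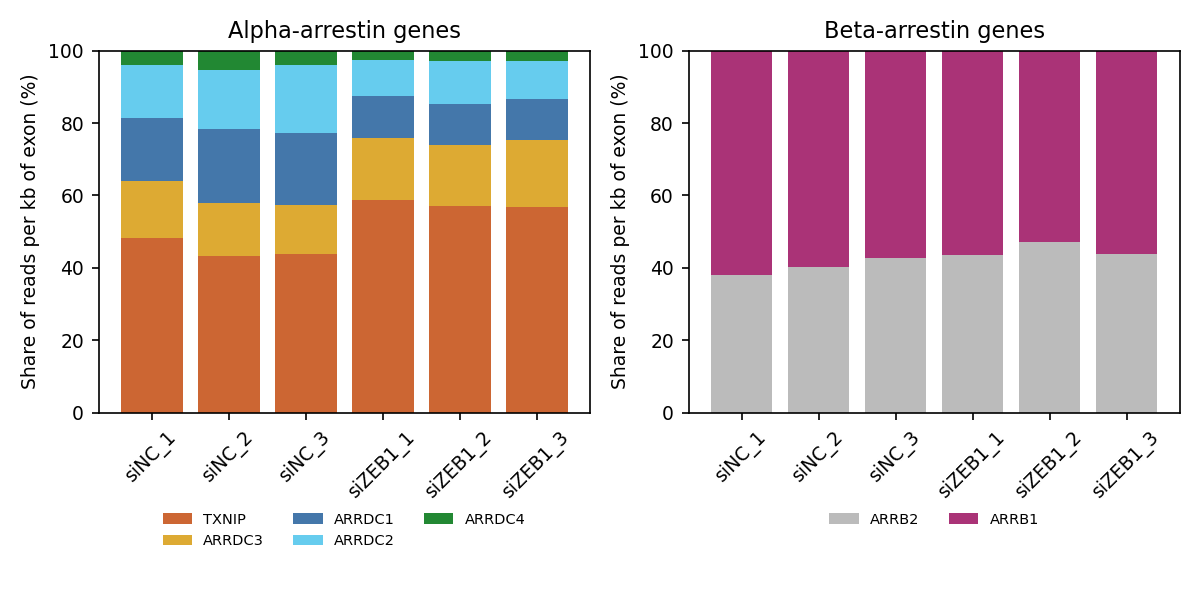
Share of each gene in the summed level per kb of exon (%, axis from 0 to 100), for the 5 alpha-arrestin genes on the left and the 2 beta-arrestin genes on the right, one stacked bar per culture. *TXNIP* takes 43.3% to 48.2% of the alpha-arrestin bar with siNC and 56.9% to 58.8% with siZEB1.

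The promoter sequences bear on *TXNIP* and *ARRDC4*, whose response to glucose runs through the factors MondoA (*MLXIP*), ChREBP (*MLXIPL*) and their partner *MLX*, and on *ARRDC3*, whose promoter the study examined by qChIP. The RefSeq table (GRCh38.p14) gave 9 windows for 6 of the 7 genes, each from 250 bases before a start site to 49 after it; *ARRB1* has none. Positions are counted from 0 at the start site. The stretches from -250 to -51 of 3 windows are printed on the gene's own strand, 5′ to 3′, with capitals for a match to CACGTG or to a pair of spaced E-box half-sites, the form of a carbohydrate response element, and, in *ARRDC3*, for the site of a qChIP primer.
TXNIP, chr1:145996630-145996829, minus strand: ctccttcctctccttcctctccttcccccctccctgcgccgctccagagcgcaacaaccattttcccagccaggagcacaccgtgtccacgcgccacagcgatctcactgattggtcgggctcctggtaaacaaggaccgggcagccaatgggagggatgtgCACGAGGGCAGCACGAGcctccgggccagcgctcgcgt
ARRDC4, chr15:97960453-97960652, plus strand: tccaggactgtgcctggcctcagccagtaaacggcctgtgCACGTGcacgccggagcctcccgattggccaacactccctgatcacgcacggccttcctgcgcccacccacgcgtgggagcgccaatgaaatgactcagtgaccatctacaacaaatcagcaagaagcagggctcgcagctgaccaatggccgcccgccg
ARRDC3, chr5:91383368-91383567, minus strand: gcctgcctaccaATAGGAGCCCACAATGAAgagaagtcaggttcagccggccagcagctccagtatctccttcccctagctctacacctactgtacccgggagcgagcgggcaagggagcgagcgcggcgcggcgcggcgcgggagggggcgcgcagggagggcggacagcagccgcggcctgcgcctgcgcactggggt

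In the *TXNIP* window a paired half-site, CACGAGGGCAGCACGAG, lay from -88 to -72, and the pattern was found in 2.22% of the 35116 windows of the table and in 3.48% of the 15184 windows of tested genes. The only other match among the 9 windows was in *ARRDC2*, CCCGCGTGCGTCACGGG from -24 to -8. *ARRDC4* held CACGTG from -210 to -205, an E-box that 7.26% of all windows and 9.31% of those of tested genes held and that is also a single half-site of the pattern. The ZEB1 E-box CACCTG, searched on both strands, was in none of the 9 windows and in 20.6% of all windows, or 18.9% of those of tested genes. CCAAT, the core of the NF-Y site, was in 6 of the 9 windows, at least one for each of the 6 genes, and in 34.6% of all windows, with 3 matches in *ARRDC4*, 2 in *TXNIP* and 2 in *ARRB2*. In *ARRDC3* the reverse qChIP primer, ttcattgtgggctcctat, matched the opposite strand from -238 to -221 (chr5:91383538-91383555). The forward qChIP primer was found in no window of *ARRDC3*, so the searched windows may not hold the whole assayed stretch. By qChIP the study reports significant enrichment at *CLDN7*, *ANXA7*, *CAB39L* and *ETV7*, and does not name *ARRDC3* among them. A match is a description of letters, not a bound site.

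Of the 3 genes for these glucose-sensing factors, 1 was called lower and 2 were not called (median log2 fold change 0.020). Over all genes tested, 21.2% were called lower and 19% higher, with a median of -0.0055. *MLXIP* fell from 87.8 ± 5.51 to 70.8 ± 1.43 CPM (SD over 3 cultures; log2 fold change -0.31, adjusted p = 0.0014). *MLX* had a log2 fold change of 0.020 (adjusted p = 0.829), with 18.1% of its exonic bases under *PSMC3IP* on the opposite strand. *MLXIPL* had 18, 14 and 21 counts with siNC and 23, 32 and 26 with siZEB1 (log2 fold change 0.74, adjusted p = 0.0605), and was called, at an adjusted p under 0.05, without siNC_3 and when genes were kept only if each culture had 10 or more counts.

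The thioredoxin system, which TXNIP binds into, was mostly not called: of 10 genes 1 rose, 1 fell and 8 were not called, with a median log2 fold change of -0.054 beside -0.0055 over all genes tested, of which 19% were called higher and 21.2% lower; the counts and medians of the lists that follow stand beside the same values. *TXN*, the partner of TXNIP, had 414 ± 21.2 CPM with siNC and 402 ± 28.2 with siZEB1 (SD over 3 cultures; log2 fold change -0.042, adjusted p = 0.618). *TXNRD1*, the cytosolic thioredoxin reductase, fell from 593 ± 49.8 to 369 ± 24.5 CPM (log2 fold change -0.69, adjusted p = 3.91e-07). *PRDX4*, the peroxiredoxin of the endoplasmic reticulum, rose from 44.3 ± 5.05 to 109 ± 9.26 CPM (log2 fold change 1.30, adjusted p = 3.84e-09). Leaving out siNC_1 or siZEB1_2, or scaling by total library size, gave 2 called lower, and leaving out siNC_3 or siZEB1_3 gave 2 called higher.

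Of 7 described cargoes of the arrestin-domain proteins, 6 could be tested, of which 1 was called higher and 3 lower, with a median log2 fold change of -0.34. *SLC2A1*, the gene for the TXNIP cargo GLUT1, fell from 2049 ± 31.1 to 1286 ± 21.4 CPM (SD over 3 cultures; log2 fold change -0.67, adjusted p = 5.55e-09), opposite in direction to *TXNIP*. *NOTCH1* fell by 0.77 and *SLC11A2*, an iron transporter, by 0.25 on the log2 scale (adjusted p = 1.38e-07 and 0.0158). *ITGB4*, the integrin that ARRDC3 acts on, rose from 18.4 ± 2.64 to 22.3 ± 0.887 CPM (log2 fold change 0.28, adjusted p = 0.0334). The call of *ITGB4* was lost when siNC_1, siNC_2, siZEB1_1 or siZEB1_3 was left out, and with the replicate number as a block.

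Among the 9 NEDD4-family ligases, 8 were tested, of which 2 were called higher and 2 lower (median log2 fold change -0.13). *NEDD4* fell from 31.0 ± 4.48 to 19.4 ± 2.60 CPM (SD over 3 cultures; log2 fold change -0.68, adjusted p = 0.000125) and *SMURF2* by 0.40 on the log2 scale. *WWP2* rose from 45.4 ± 0.674 to 69.8 ± 2.61 CPM (log2 fold change 0.62, adjusted p = 1.28e-06), and *HECW1*, at 2.39 CPM with siNC, rose by 0.69 on the log2 scale. *NEDD4L*, *ITCH* and *WWP1* were not called (log2 fold changes 0.070, -0.12 and -0.13). Without siNC_3, 4 ligase genes were called lower. For the ESCRT genes that act with ARRDC1, 4 of 5 were called higher, where 19% of all genes tested were, among them *TSG101*, from 61.4 ± 2.60 to 80.6 ± 1.67 CPM (log2 fold change 0.39, adjusted p = 0.000134), and *VPS4A*, *VPS4B* and *CHMP4B* had log2 fold changes of 0.22 to 0.23. That count was 1 without siZEB1_1 and 2 without siNC_2. Exons of *COG8* on the opposite strand cover 22.0% of the exonic bases of *VPS4A*, and those of AC026464.4 on the same strand cover 21.0%.

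Beside the fall of both beta-arrestin genes, 7 of the 10 tested genes for the kinases and other proteins they hold were called lower, with a median log2 fold change of -0.35, where 21.2% of all genes tested were called lower and their median was -0.0055. None was called higher by edgeR or by DESeq2. With a fold change above 1.5 and an unadjusted edgeR p under 0.05, 0 were higher and 0 were lower. *MAP2K2* fell by 0.52, *PDE4D* by 0.49 and *MAP2K1* by 0.42 on the log2 scale, with adjusted p from 1.72e-05 to 6.2e-05, while *MAPK3* was not called (-0.10, adjusted p = 0.422). Of the 5 receptor kinase genes, *GRK2* was called higher (log2 fold change 0.30, adjusted p = 0.00142), *GRK4* and *GRK6* lower (-0.49 and -0.25), and *GRK5* was not called (-0.22, adjusted p = 0.126). The count of kinases called lower was 1 without siZEB1_1, without siZEB1_3 or with the replicate number as a block. Of 12 clathrin and AP2 genes, 3 were called higher and 4 lower (median log2 fold change 0.015). *ARF6*, a small GTPase of the receptor route, fell from 144 ± 1.35 to 69.8 ± 1.53 CPM (SD over 3 cultures; log2 fold change -1.04, adjusted p = 9.91e-10). *AP2A2* fell by 0.28 and *AP2B1*, the subunit that beta-arrestins bind, by 0.16 on the log2 scale (edgeR adjusted p = 0.002 and 0.0268). *CLTB* and *EPN1* rose by 0.44 and 0.34 on that scale. *CLTC*, the clathrin heavy chain, and *DNM2* were not called (0.012 and 0.11). In this list 2 genes were called lower when siNC_2 or any siZEB1 culture was left out, and with the block.

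Other genes of the arrestin fold divided. *VPS26C* rose from 55.6 ± 1.57 to 108 ± 1.79 CPM (SD over 3 cultures; log2 fold change 0.96, adjusted p = 3.96e-09) and *VPS26A*, a retromer subunit, by 0.53, while *VPS26B*, its paralog, fell by 0.34 and *RGP1* by 0.44 on the log2 scale. *ARRDC5*, the remaining alpha-arrestin gene, had 0 or 1 counts per culture and was not tested. Opposite-strand exons of AC116913.1 cover 11.5% of the exonic bases of *MAP2K1*, those of MSMP 11.1% of *RGP1* and those of F12 9.16% of *GRK6*. Over all 9 lists, 14 genes were called higher, 22 lower and 28 not, of 64 tested out of 69, beside 19% higher and 21.2% lower over all genes tested.

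**Figure D4:**
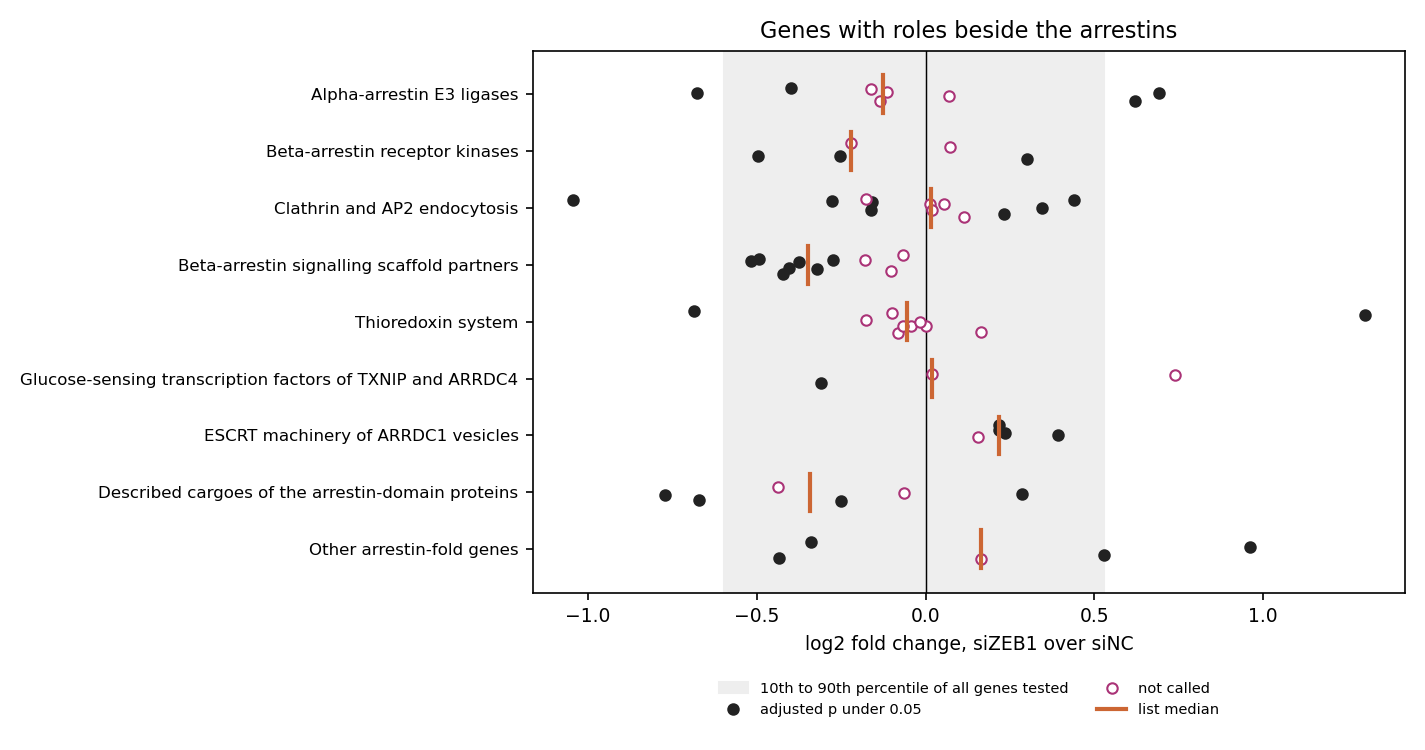
Log2 fold change of each tested gene in 9 lists of genes with roles beside the arrestins, siZEB1 over siNC; filled points were called at an adjusted p under 0.05, open points were not, and the orange line is the list's median. The grey band holds the 10th to 90th percentile of all genes tested (-0.60 to 0.53), below which *ARF6*, *NOTCH1*, *TXNRD1*, *NEDD4* and *SLC2A1* stand and above which *PRDX4*, *VPS26C*, *MLXIPL*, *HECW1* and *WWP2* stand, with *VPS26A* at its upper edge.

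For each called member, the gene with the most similar pattern, of those with a mean of at least 5 CPM over all 6 cultures, was sought by Pearson's r of log2 CPM over the 6 cultures, among 10236 genes. It was *PDIK1L* for *TXNIP* (r = 0.999; mean 4.82 CPM with siNC and 9.24 with siZEB1), *RPIA* for *ARRDC3* (r = 0.999), *DCAF5* for *ARRB1* (r = 0.998) and *CHTF18* for *ARRB2* (r = 0.998). The 6 cultures fall into their 2 groups, and between 677 and 959 genes had an r above 0.95 with each of these members, so the pairs describe the shared group difference.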

How the data were processed

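RNA-seq of 6 SW480 cultures, 3 siNC and 3 siZEB1, grouped by the treatment label, was used. Per the submitters' processing notes, the authors used Trimmomatic, HISAT2, SAMtools and featureCounts with hg38; versions, annotation and strand setting are not given in the sources used here. The authors deposited raw counts of reads per gene, without normalization, and without strand use reads of overlapping antisense genes cannot be told apart. Genes were kept by filterByExpr (14996), scaled by the TMM method and compared by the quasi-likelihood test of edgeR (edgeR 4.0.16, limma 3.58.1, R 4.3.3), two-sided, with Benjamini-Hochberg adjustment over all genes kept. The prior count of the fitted fold change was 0.125. Each SE was taken as the absolute log2 fold change divided by the square root of the F statistic of the test. Intervals were built from that SE, are at 95% and cover the modelled spread. Library totals ran from 19040636 to 22357633 counts, and counting error limits the low genes. Exon lengths came from GENCODE 29, in which 31059 of the 32029 listed genes were found; log2 CPM used a pseudocount of 1 for pattern likeness. Promoters came from RefSeq. Protein sequences were not used here.

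Named were the 7 members, *ZEB1*, up to 4 called genes of each list by size of change, a fixed set of pathway genes whatever their value, and genes that overlap a member; some genes that this rule names are not reported here. The members and lists were chosen with earlier results of these data known, so the lists give no independent support. Alternatives were DESeq2 1.42.0, other scalings and filters, other thresholds, a replicate block, and each culture left out.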

Additional observations from a re-analysis of the deposited data

How the results depend on the processing

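Over the 12 alternative fits (DESeq2's Wald test, 2 other scalings, 2 other filters, a replicate block and each of the 6 cultures left out), *TXNIP*, *ARRDC3*, *ARRB1*, *ARRB2* and *ZEB1* kept their direction and stayed called, with adjusted p up to 0.0313 for *ARRB2*, and *ARRDC4* was never called (adjusted p 0.161 to 0.649). The log2 fold change of *ARRDC1* ran from -0.016 (without siNC_1) to 0.12 when single cultures were left out, and that of *ARRDC2* from 0.050 to 0.28. With a fold change above 1.5, 0 members were called lower at an unadjusted p under 0.05 or under 0.001, since the falls of *ARRB1* and *ARRB2* are smaller than that, and over all lists 5 genes were called higher and 5 lower at p under 0.05. Of 234 counts for single lists under an alternative, 36 moved by over 1.5 times or to or from 0. The replicate numbers of the labels did not pair the cultures (correlations of deviations -0.11, -0.15 and -0.34). With the number as a replicate block, the log2 fold changes of *TXNIP*, *ARRDC3*, *ARRB1* and *ARRB2* were 1.14, 1.04, -0.56 and -0.29, no member's call changed, and over all lists 10 genes were called higher and 18 lower. Under the block, 1 ESCRT gene and no cargo gene were called higher, and 1 receptor kinase gene and 2 clathrin and AP2 genes were called lower. Levels per length moved by less than the SD when total library size replaced TMM. The depth of *ARRDC4*, 78 to 115 counts per culture, limits what could be seen of it.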
